A study of Homo sapiens with 9 samples.

Results

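The genes described here are 9 brakes and sensors of the cell cycle: the CDK inhibitors CDKN1A, CDKN1B, CDKN2A, CDKN2B, CDKN2C and CDKN2D, the retinoblastoma gene RB1, and MDM2 and GADD45A, which belong to the p53 response. They were taken by name, and all 9 were found among the 78894 Ensembl gene identifiers of the deposited tables, of which 42165 could be given a gene symbol. RNA was sequenced from CAL27 cells, an established line grown from a squamous carcinoma of the tongue, in a study of an enhancer active in cancers of this kind. There were 3 samples of Control and 2 each of the CRISPR-edited groups A2ko, A8ko and C9ko. The labels give 1 growth medium for all groups and no treatment. They do not say what the Control cells received. The labels give neither the edited sequence nor the clonal origin of a group, so the edit itself could not be checked.

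Values were TPM, the share of a library's transcripts that a gene takes after correction for its length. The sequencing depth is unknown. The paired files of A2ko did not differ in any value, nor did those of A8ko, and the column header in each pair named the B library. Each pair entered once, so 7 distinct libraries remained: 3 of Control, 2 of C9ko and 1 each of A2ko and A8ko. Whether the samples of a group came from separate cultures is not stated, so p-values measure only the spread between these samples. The A2ko library held 16716 genes at 1 TPM or more, and the others 15556 to 15954. Mitochondrial transcripts took 23.1% to 26.9% of the TPM in Control and 25.2% in A2ko. They took less in A8ko, at 20.6%, and in C9ko, at 20.2% and 17.9%. Squamous markers such as KRT5 and TP63 were abundant in all 7 libraries. The 8 of them summed to 14270 to 15395 TPM in Control and 5981 to 8972 TPM in the knockouts, mostly KRT5 and KRT14. KRT5 was at 8716 to 9147 TPM in Control and 3082 to 5428 TPM in the knockouts. KRT14 was at 3549 to 4286 TPM in Control and 313 to 1283 TPM in the knockouts. CDH1 and ITGB4 were higher in every knockout library than in any Control library. KRT17, TP63, EPCAM and ITGA6 differed in direction between knockouts. The immune gene PTPRC and the endothelial genes PECAM1 and KDR did not pass 0.295 TPM in any library, with KDR at 0 in all. The summed endothelial list was at 3.51 to 4.55 TPM in Control and at 22.2 and 30.1 TPM in C9ko, nearly all of it CDH5, and the summed immune list at 14.6 to 18.2 TPM in Control and at 52.8 and 51.1 TPM in C9ko, nearly all of it CD14. Fibroblast markers summed to 7.36 to 17.7 TPM over the 7 libraries, with COL3A1 at 0. The part of these markers in the results was not tested.

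As background, cells enter the DNA synthesis phase when cyclin-dependent kinases phosphorylate the RB protein and release E2F transcription factors. Proteins of the INK4 family (CDKN2A to CDKN2D) bind and block the kinases CDK4 and CDK6, while the CIP/KIP proteins (CDKN1A, also called p21, and CDKN1B, also called p27) bind cyclin-kinase complexes more widely. The transcription factor p53 induces CDKN1A, GADD45A and MDM2 after stress, and MDM2 in turn marks p53 for destruction. In squamous carcinomas of the head and neck this circuit is often disabled. The transcript of p53 itself was not analysed here.

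The promoter table, from RefSeq on GRCh38.p14, had entries for 8 of the 9 genes. In each, the 250 bases before a transcript start were searched on both strands for the p53 consensus, a pair of adjacent half-sites of 20 bases in all. Over the 34943 such windows of all genes, 0.561% held a match with at most 2 mismatches and 4.36% one with at most 3. The internal promoter of MDM2 is shown because it held the closest match among the 8 genes searched. Those of CDKN2A and CDKN2B are shown because these neighbours were both below Control in A8ko. Only the longest stretch outside annotated exons is printed for each, 5′ to 3′ on the gene's own strand, and capitals mark matches with at most 3 mismatches.
MDM2, chr12:68808767-68809001, plus strand: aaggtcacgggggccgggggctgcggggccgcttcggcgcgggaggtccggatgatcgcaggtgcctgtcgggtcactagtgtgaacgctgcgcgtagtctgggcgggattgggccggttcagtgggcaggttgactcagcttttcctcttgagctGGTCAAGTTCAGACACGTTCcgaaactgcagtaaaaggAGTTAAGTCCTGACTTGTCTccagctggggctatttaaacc
CDKN2A, start furthest upstream, chr9:21995325-21995481, minus strand: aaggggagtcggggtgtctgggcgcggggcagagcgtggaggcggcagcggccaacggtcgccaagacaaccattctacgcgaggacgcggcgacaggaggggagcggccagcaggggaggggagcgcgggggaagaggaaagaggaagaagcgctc
CDKN2B, chr9:22009364-22009555, minus strand: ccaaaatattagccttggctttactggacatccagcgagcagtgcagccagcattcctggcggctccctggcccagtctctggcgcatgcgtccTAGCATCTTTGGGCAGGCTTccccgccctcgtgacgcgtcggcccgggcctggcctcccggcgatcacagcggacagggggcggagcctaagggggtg

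In the MDM2 stretch the match nearer the start had 3 mismatches and the other 2, and the match in CDKN2B had 3. The CDKN2A stretch held none. A match describes these letters only. Among the windows not printed, those of CDKN1B and RB1 also held a match with 3 mismatches. The CDKN1A window held none closer than 5 mismatches. The windows of CDKN1A, CDKN1B and RB1 lie inside the bounds of their genes, and sequence further upstream was not searched. The absence of a match in a window therefore does not show that a gene lacks a p53 site.

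In Control all 9 genes were expressed and passed the filter on low values. CDKN2A was the highest at 86.9 ± 8.05 TPM (SD, n = 3), followed by GADD45A, RB1, CDKN1A, CDKN1B, CDKN2B, MDM2, CDKN2C and CDKN2D, the lowest at 10.4 ± 1.07 TPM (SD, n = 3). Neighbours in this order did not overlap between Control libraries, except CDKN2B with MDM2 and CDKN2C with CDKN2D. The plot of levels by library shows that GADD45A in A2ko stood apart more than any other value of the 9 genes, with a span of 1.37 log2 units over the 7 libraries. The other 8 genes spanned less than 1 log2 unit.

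**Figure D1:**
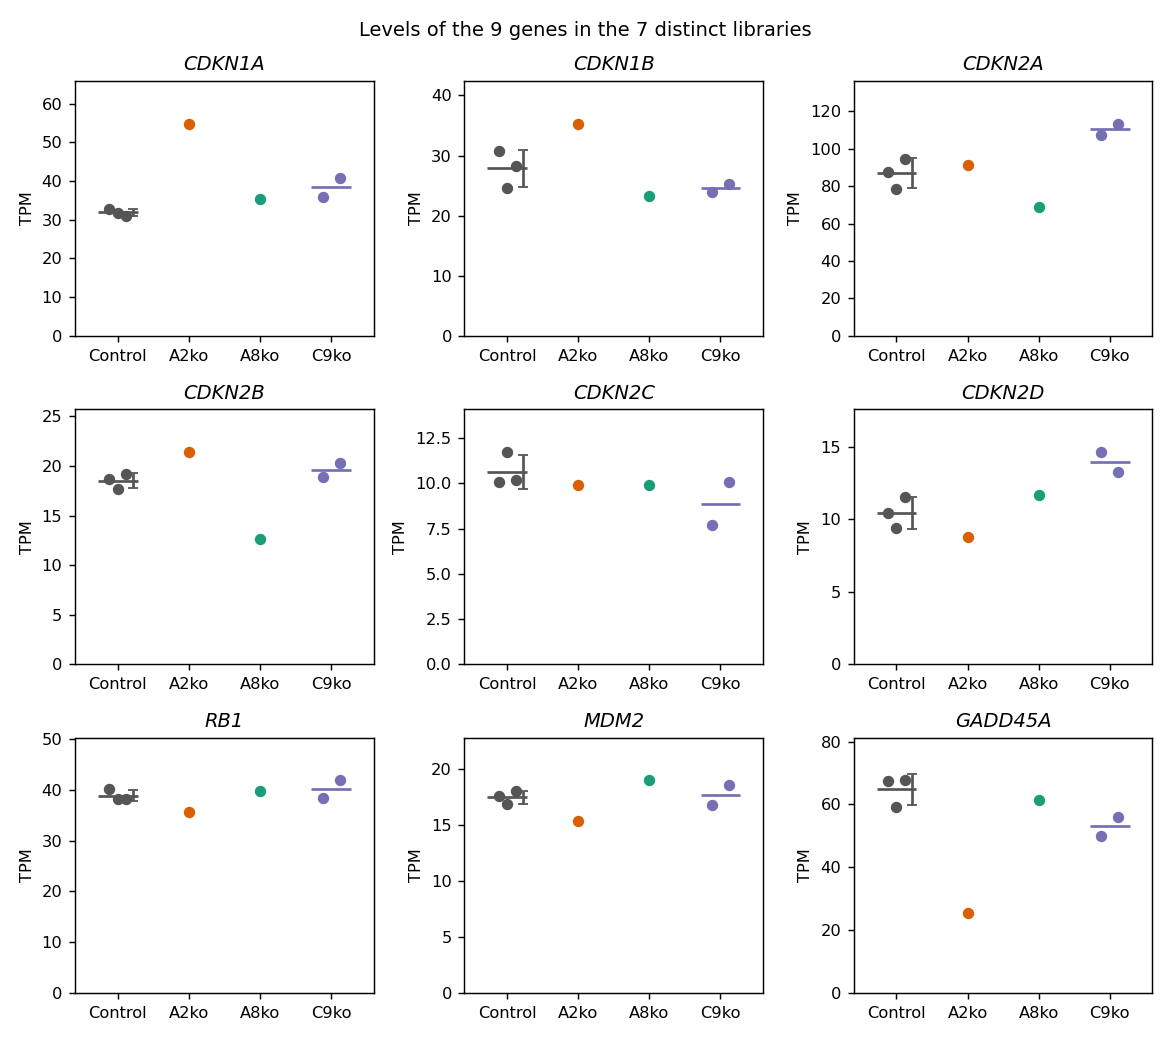
Levels of the 9 genes in TPM (vertical axes, each starting at 0) in the 7 distinct libraries, 1 point per library, with lines at the means of Control and C9ko and bars for the SD of the 3 Control libraries. GADD45A falls to 25.5 TPM in A2ko, CDKN1A reaches 54.8 TPM there, and CDKN2B is lowest in A8ko at 12.6 TPM.

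Each knockout was set against Control to ask what the edits changed. C9ko, with 2 libraries, was tested with limma on log2(TPM + 1) over 17100 genes, and a gene was called at an adjusted p-value under 0.05. A2ko and A8ko have 1 library each, so no p-value is given and a gene was counted when it passed the Control extremes and was 1 log2 unit or more away from the mean of Control. The tested genes had a median difference of 0.12 for A2ko, 0.09 for A8ko and 0.11 for C9ko. Scaling with median-of-ratios factors, called scaling below, moved these to -0.03, 0.02 and 0.00. In C9ko, 4 of the 9 genes were called, 3 higher and 1 lower, where 29.5% of all tested genes were called, 22% higher and 7.42% lower. In A2ko 1 of 9 was counted, lower, against 5.07% of all genes (3.54% higher, 1.53% lower). In A8ko 0 of 9 were counted, against 4.73% (2.05% higher, 2.68% lower). Regardless of size, 8 of the 9 genes lay outside the Control extremes in A2ko, 3 higher and 5 lower, and 76.7% of all genes did so (50.4% higher, 26.3% lower). In A8ko these were 7 of 9, 3 higher and 4 lower, against 73.3% (46.9% higher, 26.4% lower). Both C9ko libraries lay beyond Control on 1 side in 5 of 9, 3 higher and 2 lower, against 57.5% (41.1% higher, 16.4% lower). The 9 genes had median differences of -0.09 (A2ko), -0.07 (A8ko) and 0.04 (C9ko).

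The 3 knockouts were also compared with Control together, with each group as 1 value. None of the 9 genes was called by limma, against 1.03% of all genes (0.509% higher, 0.52% lower), and 1 of them, CDKN1A, had an unadjusted limma p under 0.05, at 0.0496, where 16.0% of all tested genes did. In C9ko all 4 calls were lost without the filter on low values, with limma adjusted p of 0.123 for CDKN1A, 0.140 for CDKN2A, 0.130 for CDKN2D and 0.185 for GADD45A.

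**Figure D2:**
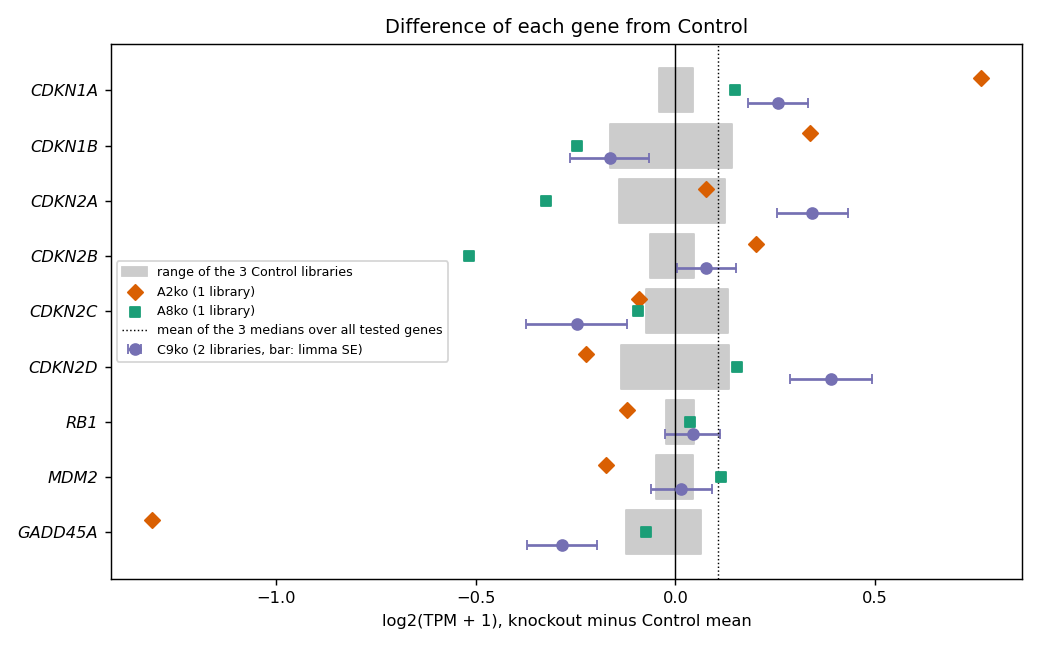
Difference of each gene from the Control mean on the log2(TPM + 1) scale (horizontal axis), with 1 point for A2ko, 1 for A8ko and the C9ko estimate with its limma SE, over a grey band for the range of the 3 Control libraries. GADD45A in A2ko, at -1.31, is the value furthest from 0, and the dotted line marks the mean of the 3 medians over all tested genes.

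Of the CIP/KIP inhibitors, CDKN1A (ENSG00000124762, chromosome 6, 36676460 to 36687339, protein coding) was higher in all 4 knockout libraries than in any Control library. It was at 32.9, 31.8 and 30.9 TPM in Control, whereas the A2ko library had 54.8, the A8ko library 35.4 and the C9ko libraries 36.0 and 40.7. A2ko was thus 1.72 times the Control mean, and A8ko 1.11 times. Every knockout library lay beyond every Control library in 2 of the 9 genes, against 21.6% of all tested genes, and upward in 1, against 17%. In C9ko CDKN1A rose by 0.26 on the log2 scale (SE 0.08, limma adjusted p 0.0430), in 2 of 2 libraries. That call was lost after scaling, at 0.14 (adjusted p 0.151), and without Control 1, 2 or 3 or C9ko 2, with adjusted p of 0.0687, 0.0950, 0.114 and 0.231. Over all knockouts the difference was 0.39 (SE 0.16, limma adjusted p 0.311). A non-coding gene, DINOL, overlaps CDKN1A on the other strand and was at most at 0.342 TPM.

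CDKN1B (ENSG00000111276, chromosome 12, 12715058 to 12722371, protein coding) lay on opposite sides of Control in A2ko and A8ko, as did 24.9% of all tested genes. It was at 30.7, 24.7 and 28.2 TPM in Control, whereas the A2ko library had 35.3, the A8ko library 23.3 and the C9ko libraries 24.0 and 25.3. A2ko lay above all Control libraries and A8ko below them, while C9ko reached into their range on the deposited scale and lay below it after scaling. The C9ko difference of -0.16 (SE 0.10, limma adjusted p 0.255) did not pass the test, although after scaling it was -0.28 with an adjusted p of 0.0443.

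CDKN2A (ENSG00000147889, chromosome 9, 21967753 to 21995301, protein coding) encodes both the CDK inhibitor p16INK4a and, from another first exon, ARF, which restrains MDM2. A value per gene does not tell these products apart. It was at 87.6, 78.5 and 94.6 TPM in Control, whereas the A2ko library had 91.4, the A8ko library 69.0 and the C9ko libraries 107.0 and 113.3. A8ko was below every Control library, A2ko within their range and C9ko above them, and 7.13% of all genes had A8ko and C9ko on opposite sides of Control. In C9ko CDKN2A rose by 0.34 on the log2 scale (SE 0.09, limma adjusted p 0.0279). The call was lost after scaling, at 0.22 (adjusted p 0.0564), and without Control 1 or 2 or C9ko 1 or 2 (0.0642, 0.0513, 0.0674 and 0.131).

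CDKN2B (ENSG00000147883, chromosome 9, 22002903 to 22009363, protein coding), known as a target of TGF-beta signalling, lies next to CDKN2A. It was at 18.7, 17.6 and 19.1 TPM in Control, whereas the A2ko library had 21.4, the A8ko library 12.6 and the C9ko libraries 18.9 and 20.3. The A8ko value was 0.682 times the Control mean, a log2 difference of -0.52, and it was -0.60 after scaling. In C9ko the difference was 0.08 (SE 0.07, limma adjusted p 0.469) and -0.04 after scaling. So CDKN2A and CDKN2B were both below all Control libraries in A8ko, as were 26.4% of all tested genes, whereas in C9ko CDKN2A was called and CDKN2B was not. Whether these 2 genes differ in C9ko was not tested.

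The neighbourhood on chromosome 9 was examined for each, as the 10 nearest tested genes on either side. In C9ko, 10 of the 20 neighbours of CDKN2A were called higher and 0 lower, with a median difference of 0.47, against 22% of all tested genes called higher. For CDKN2B these were 11 of 20 and a median of 0.53. Most neighbours are shared by both genes, and CDKN2A itself is among the 11, so this is not a separate result. The neighbours of CDKN2A spanned 6.57 Mb and those of CDKN2B 11.1 Mb. In A8ko, where a gene had to be 1 log2 unit or more away, 0 of 20 neighbours were counted for either gene. Of all tested genes 4.73% were counted there. The rules differ, so the A8ko count cannot be set against the C9ko calls. The A8ko medians of the neighbours were 0.01 and 0.08. Neighbours were not counted after scaling. No other of the 9 genes had more than 5 of 20 neighbours called higher in C9ko. The antisense RNA CDKN2B-AS1, which overlaps both genes on the other strand, was at 5.59, 5.83 and 6.13 TPM in Control, whereas the A2ko library had 6.93, the A8ko library 6.41 and the C9ko libraries 12.3 and 10.3. It rose by 0.84 log2 units in C9ko (limma adjusted p 0.00118), and the use of strand in counting is not given in the sources used here. MTAP, an enzyme gene of methionine salvage beside CDKN2A, was at 60.0 TPM on average in Control, and its C9ko difference of 0.51 did not pass the test (limma adjusted p 0.134). The part of the neighbourhood in the CDKN2A value was not tested.

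**Figure D3:**
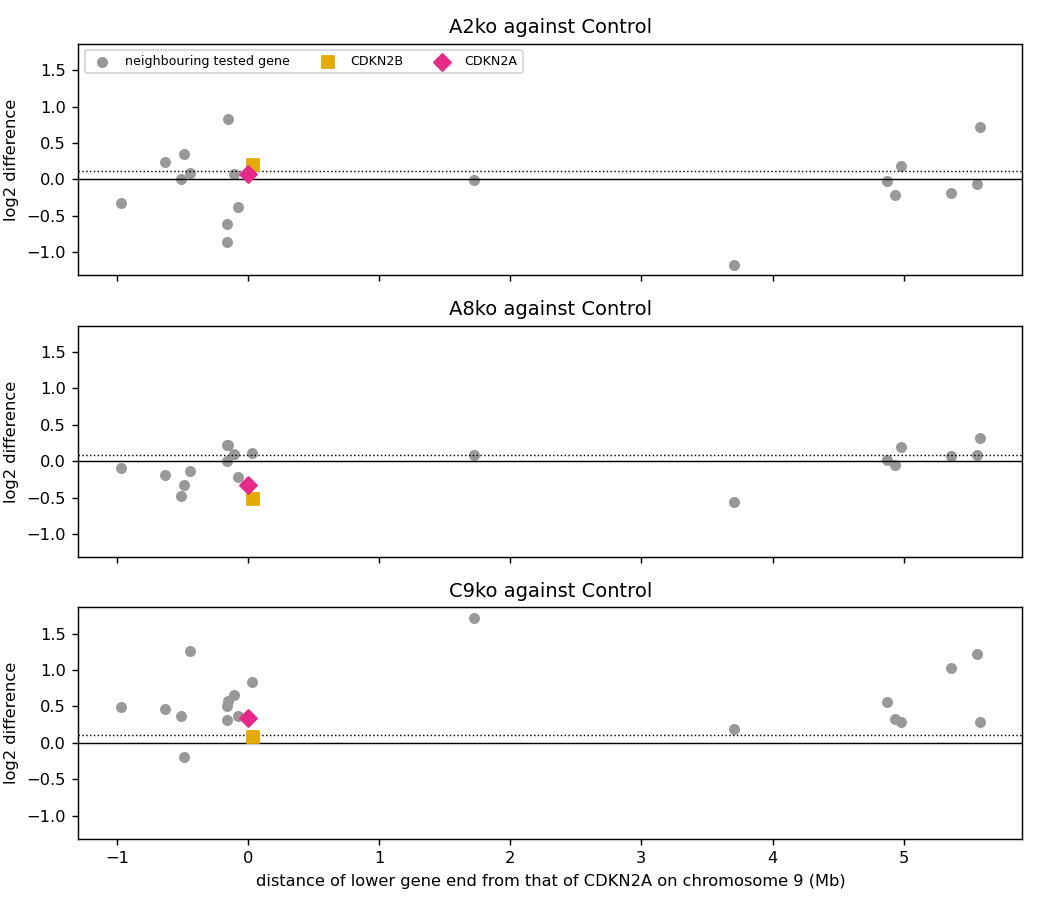
Log2 difference from Control (vertical axis) of CDKN2A, CDKN2B and the other 19 neighbouring tested genes against distance along chromosome 9 in Mb, 1 panel per knockout, with a dotted line at the median of all tested genes. In C9ko 19 of the 20 neighbours, CDKN2B included, lie above 0, while in A8ko CDKN2A and CDKN2B are both below it.

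The other INK4 inhibitors were expressed at a lower level. CDKN2C (ENSG00000123080, chromosome 1, 50960745 to 50974633, protein coding) was at 10.0, 11.7 and 10.2 TPM in Control, whereas the A2ko library had 9.91, the A8ko library 9.90 and the C9ko libraries 7.68 and 10.0. Each knockout library was below the Control libraries, but the higher C9ko library and the lowest Control library were both at 10.0 TPM, and 4.61% of all genes were separated downward. Without mitochondrial genes A2ko, at 13.2 TPM, was no longer below the lowest Control library, at 13.1 TPM. The C9ko difference was -0.25 (SE 0.13, limma adjusted p 0.187).

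CDKN2D (ENSG00000129355, chromosome 19, 10566462 to 10569059, protein coding) was at 10.4, 9.37 and 11.5 TPM in Control, whereas the A2ko library had 8.76, the A8ko library 11.7 and the C9ko libraries 14.6 and 13.3. It lay below Control in A2ko and above it in C9ko. A8ko lay above Control on the deposited scale only, and within its range after scaling (11.5 TPM against at most 11.8) and without mitochondrial genes. Of all genes, 16.9% had A2ko and C9ko on opposite sides. In C9ko it rose by 0.39 on the log2 scale (SE 0.10, limma adjusted p 0.0302), the largest rise there among the 9 genes, and the mean was 1.34 times that of Control. After scaling it was 0.28 (adjusted p 0.0820), and without Control 1 or 2 or C9ko 1 or 2 the adjusted p was 0.0714, 0.0733, 0.140 and 0.0604.

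RB1 (ENSG00000139687, chromosome 13, 48303726 to 48599436, protein coding), whose product holds E2F factors inactive, varied least. It was at 40.1, 38.1 and 38.2 TPM in Control, whereas the A2ko library had 35.6, the A8ko library 39.8 and the C9ko libraries 38.3 and 41.8. The highest library was 1.17 times the lowest, A2ko lay below the Control range, and 1 of the 2 C9ko libraries lay above it on the deposited scale. After scaling all 4 knockout libraries lay below it, A8ko (39.09 TPM) and C9ko 2 (39.20 TPM) just under the lowest Control library (39.26 TPM). The share of all genes separated after scaling was not computed. Without mitochondrial genes A2ko lay below the Control range, A8ko within it, and C9ko reached into it. In C9ko the difference was 0.04 (SE 0.07, limma adjusted p 0.667), and it was -0.08 after scaling. Within the bounds of RB1, on the other strand, lies the receptor gene LPAR6, at 10.9 to 12.7 TPM in Control and 5.79 to 8.03 TPM in the knockouts. RCBTB2, which also overlaps RB1 on that strand, was at 7.04 to 7.82 TPM in Control and 3.92 to 5.87 TPM in the knockouts.

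Among genes of the p53 response, MDM2 (ENSG00000135679, chromosome 12, 68808176 to 68850686, protein coding), whose internal promoter is printed above, was nearly level. It was at 17.5, 16.8 and 18.0 TPM in Control, whereas the A2ko library had 15.4, the A8ko library 18.9 and the C9ko libraries 16.8 and 18.5. A2ko was below the Control libraries and A8ko above them, and the C9ko libraries enclosed their range on the deposited scale and lay below it after scaling. The C9ko difference was 0.01 (SE 0.08, limma adjusted p 0.904), and -0.10 after scaling.

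GADD45A (ENSG00000116717, chromosome 1, 67685061 to 67688338, protein coding) encodes a small stress protein that binds PCNA and kinases of the cell cycle and of stress signalling. It was at 67.4, 59.2 and 67.6 TPM in Control, whereas the A2ko library had 25.5, the A8ko library 61.4 and the C9ko libraries 50.1 and 56.0. The A2ko library was at 0.393 times the Control mean, a log2 difference of -1.31, and 1.53% of all genes were counted lower in A2ko. Both C9ko libraries lay below the Control range, and A8ko lay within it on the deposited scale and below it after scaling. In C9ko GADD45A fell by 0.28 on the log2 scale (SE 0.09, limma adjusted p 0.0498). With a pseudocount of 0.1 the adjusted p was 0.0516, and without Control 1 or 3 or C9ko 1 or 2 it was 0.121, 0.132, 0.222 and 0.0630. After scaling the fall was 0.40 (adjusted p 0.00521). Of its relatives, GADD45B had 33.7 to 35.6 TPM in Control libraries, 23.7 in that of A2ko, 32.3 in that of A8ko and 29.9 and 33.3 in those of C9ko, where it was not called (limma adjusted p 0.233). GADD45G had 2.66 to 3.54 TPM in Control libraries, 3.55 in that of A2ko, 3.25 in that of A8ko and 1.39 and 1.47 in those of C9ko, where it fell by 0.78 (limma adjusted p 0.00569).

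Of the 3 p53-response genes of the set, GADD45A alone was counted in A2ko, at -1.31, while the differences of CDKN1A and MDM2 were 0.76 and -0.17. A wider list of p53 targets was examined, of which 28 of 30 were tested. In A2ko 1 of them was counted, higher, against 3.54% of all genes: the growth inhibitor gene BTG2, at 15.7 TPM against 6.17 to 7.05 in Control. The list's median there was 0.29, against 0.12 for all genes. In A8ko 3 were counted, all higher, against 2.05% of all genes: GDF15 at 1.78, BBC3 at 1.43 and PLK3 at 1.13 log2 units. In C9ko 11 were called higher and 2 lower, which is 39.3% and 7.14% of the list, against 22% and 7.42% of all genes. After scaling these were 11 and 6, against 15.8% and 12.3% of all genes. BTG2 and GDF15 were named for A2ko and A8ko after their values were seen.

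BBC3, which encodes the cell death protein PUMA, was at 6.17 to 7.86 TPM in Control, whereas the A2ko library had 3.36, the A8ko library 20.4 and the C9ko libraries 17.2 and 18.7. In C9ko it rose by 1.26 on the log2 scale (SE 0.11, limma adjusted p 0.000311). PLK3, a stress-activated kinase, rose there by 1.26 as well (SE 0.10, limma adjusted p 0.000250). BTG2 fell in C9ko by 0.65 (limma adjusted p 0.00274), opposite in direction to its difference of 1.13 in A2ko. FDXR, a mitochondrial reductase, fell in C9ko by 0.45 (limma adjusted p 0.0142) and was at 0.62 in A2ko. None of the p53 targets was called over all knockouts, where 1.03% of all genes were.

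The genes that the CDK inhibitors act on were examined last. Of 13 tested G1 cyclins, kinases and their regulators, 7 were called higher in C9ko and 1 lower, against 22% and 7.42% of all genes. After scaling the counts were 4 and 1, against 15.8% and 12.3% of all genes. This list had median differences of -0.13 (A2ko), 0.51 (A8ko) and 0.27 (C9ko). Cyclin D2 (CCND2), a partner of CDK4 and CDK6, was at 0.851 to 1.15 TPM in Control, whereas the A2ko library had 0.111, the A8ko library 15.2 and the C9ko libraries 19.8 and 22.1. Its C9ko rise of 3.48 on the log2 scale (SE 0.12, limma adjusted p 1.22e-05) was larger than the C9ko difference of any inhibitor. CDC25A, a phosphatase that activates CDK2, rose by 1.38 (limma adjusted p 4.03e-05), and CDK6 fell by 0.23 (limma adjusted p 0.0415).

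Of the 18 genes of the RB and E2F families and their partners, 8 were called higher in C9ko and 0 lower, against 22% and 7.42% of all genes. After scaling these were 6 and 0, against 15.8% and 12.3%. E2F8, a repressor of the cell cycle programme, rose by 0.56 log2 units (limma adjusted p 0.0125) and the RB relative RBL1 by 0.41 (limma adjusted p 0.00743). Of 20 tested E2F target genes, 9 were called higher in C9ko and 0 lower, with the same counts after scaling, against those same shares of all genes. PCNA, the sliding clamp of DNA replication, rose by 0.79 log2 units (limma adjusted p 0.00182), and RRM2, a subunit of ribonucleotide reductase, by 0.64 (limma adjusted p 0.00128). The E2F targets had median differences of -0.22 (A2ko), 0.32 (A8ko) and 0.20 (C9ko), with 0, 19 and 20 of 20 genes above 0, against 62.9%, 61.9% and 65.0% of all genes. After scaling the medians were -0.39, 0.24 and 0.08, with 0, 18 and 16 of 20 above 0, against 47.0%, 52.3% and 50.4%. These transcripts differed between the same groups in which the inhibitors were compared, and their part in the inhibitors' values was not tested.

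**Figure D4:**
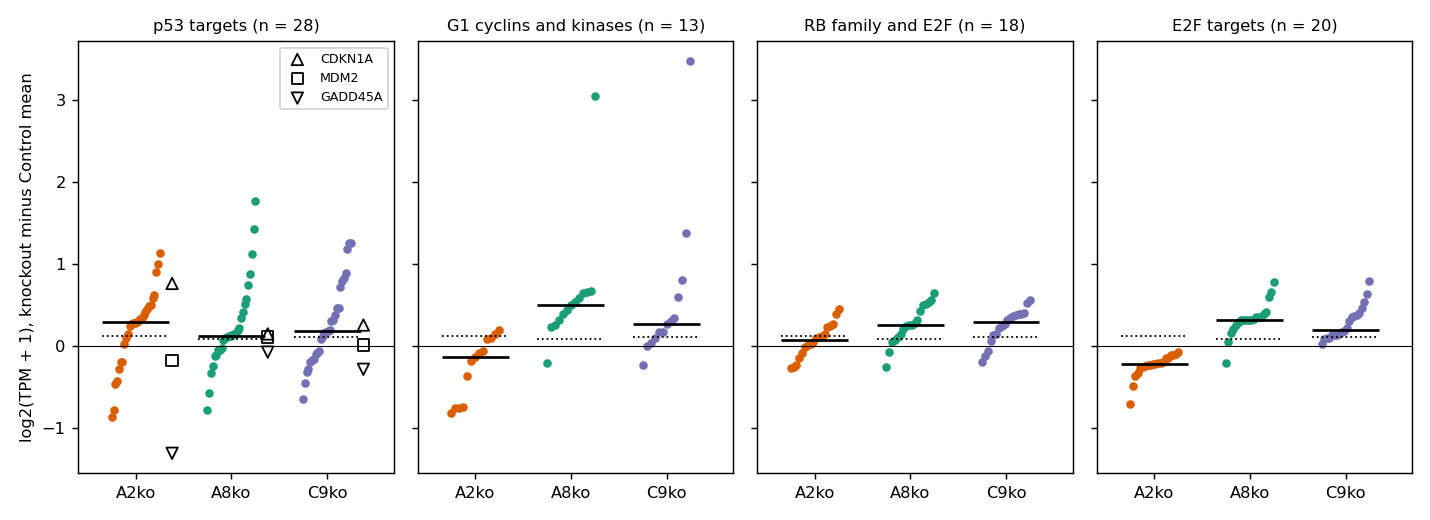
Log2 difference from Control (vertical axis) of each tested gene of the 4 lists in A2ko, A8ko and C9ko, 1 point per gene in rank order, with solid lines at the list medians and dotted lines at the medians of all tested genes. Open symbols beside the 28 p53 targets mark CDKN1A, MDM2 and GADD45A, and all 20 E2F targets lie below 0 in A2ko.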

How the data were processed

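The deposited values are TPM per Ensembl gene identifier, computed by the authors, who per the submitters' processing notes used the build hg38. The aligner, quantification tool, annotation and use of strand are not given in the sources used here. Per the labels' protocols, RNA was extracted with TRIzol and polyA RNA libraries were made by the dUTP method. TPM keeps no record of depth. Positions came from GENCODE release 29 on GRCh38.

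Genes with at least 1 TPM in at least 2 distinct libraries were tested as log2(TPM + 1), a scale that understates changes of low genes. limma 3.58.1 in R 4.3.3 (eBayes with trend) fitted all 4 groups for C9ko against Control, and 3 knockout group values against 3 Control libraries for all knockouts, with Benjamini-Hochberg adjustment over the 17100 genes, two-sided. Fits were tested on simulated data in which a changed gene moved alike in all knockout libraries, by 1 log2 unit or more. Smaller changes, such as those of most of the 9 genes, were not simulated. All 9 genes are named, and of each list at most the 2 highest and 2 lowest differences called in C9ko with a mean of at least 5 TPM, plus neighbours of CDKN2A and CDKN2B and the 2 closest profiles of a gene spanning at least 1 log2 unit. Genes overlapping the 9, and GADD45B and GADD45G, were named after their values were seen. The 9 genes and the lists were chosen with earlier results of these data known. Alternatives covered the pseudocount, the filter, scaling, left-out libraries and the replicate block.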

Additional observations from a re-analysis of the deposited data

Results flagged for a closer look

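CDKN1B, CDKN2A, CDKN2B, CDKN2D and MDM2 each had 2 knockouts on opposite sides of every Control library. These differences between knockouts were not tested. A2ko and A8ko were apart by 0.583 log2 units in CDKN1B and by 0.719 in CDKN2B, A2ko being higher in both. They were apart by 0.378 in CDKN2D and by 0.286 in MDM2, A8ko being higher in both. C9ko was above A2ko by 0.613 in CDKN2D and above A8ko by 0.667 in CDKN2A. Of all tested genes, 24.9% had A2ko and A8ko on opposite sides, 16.9% A2ko and C9ko, and 7.13% A8ko and C9ko. The share of all genes with any such pair was not computed, and it cannot be below 24.9%. After scaling, and without mitochondrial genes, CDKN2D in A8ko lay within the Control range, so its opposite sides in A2ko and A8ko hold on the deposited scale only. The other 5 pairs stayed on opposite sides on both of these scales, CDKN2B in A2ko at 0.04 and MDM2 in A8ko at 0.03 from the Control mean after scaling.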

How the results depend on the processing

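Under the alternatives tried, the 9 genes kept their side of the threshold over all knockouts in 108 of 108 fits, all uncalled. For the 4 genes called in C9ko, 29 of 52 alternative fits lost the call. Among the other 5 genes 1 call was gained, that of CDKN1B after scaling. The number of the 9 genes called in C9ko was 4 in the reported fit, 0 without a filter on low values, and 0 without Control 1 or without C9ko 2. With median-of-ratios scaling CDKN1B and GADD45A were called, and without mitochondrial genes CDKN2A and GADD45A. CDKN2A in A2ko, RB1 in A8ko, and CDKN2B, RB1 and MDM2 in C9ko changed sign after scaling, none of them called. In A2ko 9 and in A8ko 8 of 72 values each moved by more than the Control SD. The A2ko moves all came from scaling, which moved every one of the 9 genes there, CDKN1A from 0.76 to 0.60. Those of A8ko came only from scaling and from leaving out mitochondrial genes.

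Over all genes, 5038 were called in C9ko, 74.8% of them higher, 56.3% of 4801 after scaling and 60.7% of 4777 without mitochondrial genes. Leaving out 1 library gave 3301 to 4174, and counting all 9 files 8166. The replicate block gave 3248. Whether the replicate numbers pair the libraries is not known. Deviations of same-numbered Control and C9ko libraries correlated at -0.05 and -0.01 across genes. The deviations of 1 C9ko library are the reverse of the other's, so these values cannot exclude pairing. Of the 9 genes the block kept only the call of CDKN2D. Over all knockouts 176 were called, 49.4% higher, and 27.8% of 133 after scaling. This count was 5 to 11 without 1 Control library, 1993 without A2ko, 67 without C9ko, 23 without a filter, and 485 with each knockout library as 1 value. The 867 genes counted in A2ko, 69.9% higher (54.4% after scaling), became 1813 with a pseudocount of 0.1 and 380 with a mean of at least 5 TPM. The 809 of A8ko became 1689 and 412. Causes were not tested. With depth unknown, no counting interval could be given, and A2ko and A8ko have no replicates.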

Other observations

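CDKN1C, the third CIP/KIP inhibitor, was at 0.0782 to 0.347 TPM in the 7 libraries and was not tested. Among 10 regulators of p53, such as the kinases ATM and CHEK2 and the MDM2 relative MDM4, 1 was called in C9ko. This was the ubiquitin ligase gene RCHY1, which rose by 0.35 log2 units (limma adjusted p 0.0292). Of all tested genes 22% were called higher there and 7.42% lower. None of the 10 was counted in A2ko or A8ko, against 5.07% and 4.73% of all genes. After scaling, 0 were called higher in C9ko and 1 lower, against 15.8% and 12.3% of all genes.

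GADD45A was the only one of the 9 genes to span at least 1 log2 unit. The tested genes with a mean of at least 5 TPM whose values ran closest to it over the 7 libraries were the small nucleolar RNAs SNORD100 and SNORA5C, with root mean square differences of 0.102 and 0.133 log2 units. Control libraries held 15.4 to 18.0 TPM of SNORD100, the A2ko library 6.98, the A8ko library 15.8 and the C9ko libraries 12.8 and 13.1. For SNORA5C these were 7.14 to 7.32, 2.48, 8.22, and 5.87 and 5.47 TPM. Its A8ko value was thus above Control, unlike that of GADD45A. Both were picked as the closest, so their closeness is not a test. The libraries were made from polyA RNA, and how well they measure such small RNAs was not tested.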
